A study of Mus musculus with 302 samples.

Results

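The serpin and coagulation factor genes were described in the livers of 302 F2 mice, with every probe of 1 gene whose symbol begins with Serpin, names a numbered coagulation factor, or is Fga, Fgb, Fgg, Plg, Proc, Pros1, Proz, Klkb1 or Kng1. The rule found 48 probes of 44 genes among the 23562 probes and 10838 named genes of the array: 34 probes of 30 serpin genes, and 14 other genes with 1 probe each. F8a is matched by its symbol alone and is no coagulation factor; it is kept as its own class. Fga, Fgb, F11, F13a1, Pros1, Proz, Kng1 and Serpinc1 had no probe of their own and were not analysed here. The mice came from intercrosses of F1 animals of C57BL/6J and C3H/HeJ in both directions, females and males. Chow (4% fat) was the diet of all mice for the first 8 weeks, and a Western diet (42% fat, 0.15% cholesterol) for the 12 weeks that followed; livers were taken at 20 weeks, 12 hours into a fast. Each array compared the liver RNA of 1 mouse with a pool made of equal parts of all the samples, so there is 1 group and no mouse on another diet.

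Most members are made by hepatocytes and leave the cell. Coagulation runs as a cascade in which each protease cuts the zymogen of the next: tissue factor (F3) with F7 and the contact factors F12 and plasma kallikrein (Klkb1) start it, F9 and F10 with the cofactors F8 and F5 carry it to thrombin (F2), and thrombin turns fibrinogen into fibrin, which F13 cross-links and plasmin, made from plasminogen (Plg), dissolves. Serpins are protease inhibitors that trap their target by a change of shape, and some of them lost this function and carry hormones or fold collagen. Clade A serpins are mostly secreted by the liver, while clade B serpins act inside cells, among them leukocytes. Several of these plasma proteins belong to the acute phase response, in which the liver changes its output during inflammation.

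Promoters of clade A genes named in 2 results below are shown here as the 250 bases before the annotated start, from RefSeq on GRCm38.p6, 5′ to 3′. These results are the shared variation of the antitrypsin copies Serpina1a, Serpina1c and Serpina1d and the rise of Serpina11 and Serpina3f with acute phase genes. Whether the promoters have a part in either was not tested. The 3 antitrypsin copies carry 1 match each to GTTAAT, a core bound by HNF1 factors, in capitals, and Serpina11 and Serpina3f carry 1 match each to TTCNNNGAA, a core bound by STAT factors, in capitals.
Serpina1a (chr12:103863620-103863869, minus strand): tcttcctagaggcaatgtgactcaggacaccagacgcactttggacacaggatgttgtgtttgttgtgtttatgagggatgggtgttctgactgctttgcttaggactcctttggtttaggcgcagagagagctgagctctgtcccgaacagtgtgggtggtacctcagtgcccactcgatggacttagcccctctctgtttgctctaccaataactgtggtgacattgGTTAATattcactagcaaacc
Serpina1c (chr12:103904951-103905200, minus strand): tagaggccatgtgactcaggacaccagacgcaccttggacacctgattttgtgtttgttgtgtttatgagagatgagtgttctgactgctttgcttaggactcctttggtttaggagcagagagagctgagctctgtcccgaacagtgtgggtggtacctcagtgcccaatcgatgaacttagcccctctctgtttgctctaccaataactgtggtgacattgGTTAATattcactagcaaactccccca
Serpina1d (chr12:103773634-103773883, minus strand): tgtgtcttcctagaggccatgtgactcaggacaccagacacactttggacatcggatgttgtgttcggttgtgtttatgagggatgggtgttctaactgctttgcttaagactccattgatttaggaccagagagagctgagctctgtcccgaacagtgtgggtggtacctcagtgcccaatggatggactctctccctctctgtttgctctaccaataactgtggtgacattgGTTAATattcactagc
Serpina11 (chr12:103989958-103990207, minus strand): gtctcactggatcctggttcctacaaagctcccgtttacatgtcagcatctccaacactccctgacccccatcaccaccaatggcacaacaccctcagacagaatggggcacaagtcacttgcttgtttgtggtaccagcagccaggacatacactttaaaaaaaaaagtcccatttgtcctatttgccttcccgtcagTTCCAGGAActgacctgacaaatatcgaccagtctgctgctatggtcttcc
Serpina3f (chr12:104214294-104214543, plus strand): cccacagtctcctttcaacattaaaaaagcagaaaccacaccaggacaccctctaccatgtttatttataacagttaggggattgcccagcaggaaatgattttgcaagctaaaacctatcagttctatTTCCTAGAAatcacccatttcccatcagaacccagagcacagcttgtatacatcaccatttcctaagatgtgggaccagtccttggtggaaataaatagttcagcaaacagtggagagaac
Over all columns of the alignment, gaps included, Serpina1a and Serpina1c were identical at 91.4%, Serpina1a and Serpina1d at 89.4%, and Serpina1c and Serpina1d at 84.3%, against 48.3% for Serpina11 and Serpina3f. The antitrypsin windows are shifted against each other: GTTAAT begins 21 bases before the start in Serpina1a, 27 in Serpina1c and 16 in Serpina1d. Gaps from this shift count as differences, so these values do not rank the 3 copies. The table held promoters for 38 of the 44 member genes. On either strand, GTTAAT lay in this window in 8 of the 38 genes (21.1%) and in 7.49% of all 27025 genes with a promoter, TTCNNNGAA in 5 (13.2%) against 8.13%, TTGCNNAA, a core of C/EBP factors, in 8 (21.1%) against 10.8%, and CAAAGT, a core of HNF4, in 10 (26.3%) against 14.1%. A match says only that these letters stand in the window. The array's 3 probes for antitrypsin copies, its 4 for antichymotrypsin-like copies and its probes for Serpinb3, Serpinb6 and Serpinb9 copies can take up RNA of near-identical genes, so a value under 1 copy's name may hold several.

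The values are log ratios, read as log10 of mouse over pool. Neither the base nor the direction is stated; the mouse was labelled with Cy3 and the pool with Cy5 on every array, so the arrays run the same way. The marker Eif2s3y parted the mice into clusters with medians of 0.195 and -1.73 and no mouse above 0.419, which makes mouse over pool the likely direction. Correlations between arrays, over the probes with no missing value, went down to -0.519, and 1035 of 45451 pairs lay under -0.3. Log ratios to a pool hold no level, so neither the tissue label nor the order of levels between genes can be read from them. The Eif2s3y clusters and the mouse numbers up to 212 and above gave 4 blocks of 77, 65, 82 and 78 mice, and values were centred in them. The marker clusters served as blocks alone: no mouse was given a sex, and genes were not compared between them. F2 and Plg had values only in the 159 mice with numbers up to 212, so 46 probes of 42 genes passed the requirement of values in 90% of the mice. The SD over mice after centring had a median of 0.0613 over all probes, a 1.15-fold change for 1 SD.

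Serpina4-ps1, a kallistatin-like gene listed as a pseudogene, differed most between livers. Its deposited values ran from -1.3 over a median of -0.5 to 1.32, and its SD was 0.421 after centring (95% interval 0.385 to 0.454) and 0.635 before. Livers lay far from the pool on both sides. The other wide members, with a lower bound of the SD above 0.123, which is 2 times the median of all probes, are given next. Serpina7, the carrier of thyroxine, ran from -0.789 over -0.00703 to 0.953 with an SD of 0.252. F12 ran from -0.474 over -0.014 to 0.304 with an SD of 0.21. Serpina3f, an antichymotrypsin copy, ran from -0.703 over 0.0501 to 0.567 with an SD of 0.18. Serpina6, the carrier of corticosteroids, ran from -0.912 over -0.0781 to 0.283 with an SD of 0.168. Its deposited values reached farther down than up, but after centring they ran from -0.637 over 0.0148 to 0.61. Serpina12, known as vaspin, ran from -0.491 over -0.129 to 0.585 with an SD of 0.153. Serpinh1, the collagen chaperone Hsp47, ran from -0.481 over -0.105 to 0.472 with an SD of 0.138. The lower bounds of Serpinh1, just inside, and Serpini2, just outside, were 0.126 and 0.121. Together 7 of the 46 member probes varied widely, against 6.64% of all probes (1561 of 23512), and 40 of 46 lay above the median SD. At 3 times the median SD the background was 1.85%. Centring kept 99.6% of the SD of F12, but 66.3% of that of Serpina4-ps1, 68.2% of Serpina3f, 66.2% of Serpina6, 68.0% of Serpina12 and 70.3% of Serpinb8, the only 5 members that kept under 75%. At the other end stood Serpini1, the neuroserpin gene, with an SD of 0.0324 and values from -0.122 to 0.125.

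**Figure D1:**
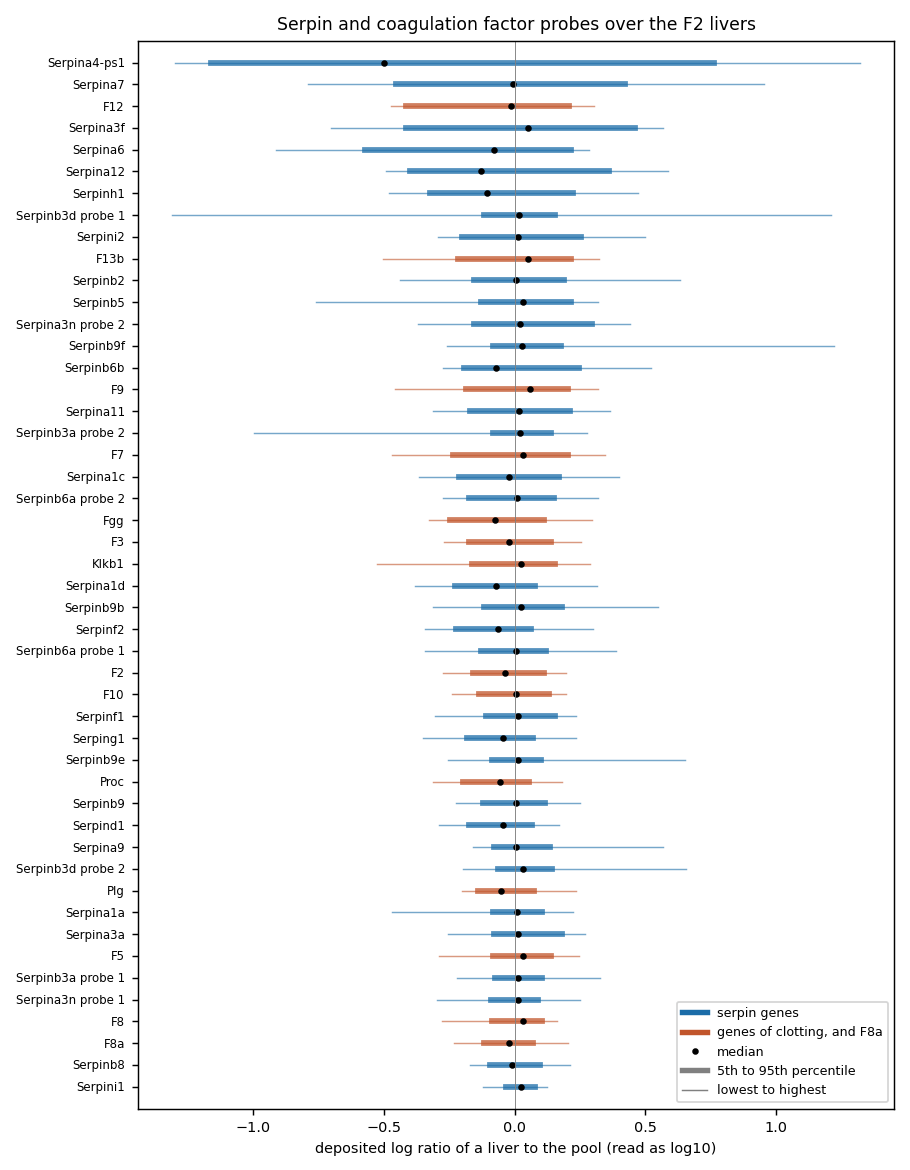
Each row is 1 member probe in order of its SD after centring; the x axis is the deposited log ratio of a liver to the pool (read as log10), the thin line runs from the lowest to the highest mouse, the thick line from the 5th to the 95th percentile, and the point is the median. Serpina4-ps1 runs from -1.3 to 1.32, F12 from -0.474 to 0.304 and Serpini1 from -0.122 to 0.125.

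F12, the zymogen of the contact pathway, was the member that parted the mice most clearly. Under the rule of 2 components, 83 mice lay in a lower and 219 in an upper cluster, 2.66-fold and 4.76 within-cluster SDs apart. Serpinb6b, with 18 mice in an upper cluster 1.94-fold above the rest, and F9, with 21 mice in a lower cluster 1.84-fold below, also passed it; 3 of 46 members did, against 2.27% of all probes (533 of 23512), and at over 4 SDs apart F12 alone did, against 0.4%. The upper F12 cluster split again when 3 components were fitted, a step added after the values were seen: the Bayesian information criterion fell by 250.0 from 1 component, against 155.0 with 2 and 240.0 with 4. The 3 clusters held 83, 145 and 74 mice, 27.5% (Wilson 95% interval 22.8 to 32.8), 48.0% (42.4 to 53.6) and 24.5% (20.0 to 29.7). Their means were -0.309, 0.0525 and 0.234 with 0.0489 as the SD within each, so the middle lay 2.3-fold above the low cluster and 1.52-fold below the high cluster. No mouse had a value between -0.153 and -0.0728, while the middle and high clusters touched between 0.149 and 0.16, and 29 mice had under 95% of their weight in 1 cluster. As background, a locus with additive effect parts an F2 into the homozygotes of either parent and a heterozygous class about as large as both together; genotypes were not analysed here. All 3 clusters were present in each of the 4 blocks: the low cluster held 23.1% to 29.3% of a block, the middle 37.7% to 61.5% and the high 15.4% to 33.8%.

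**Figure D2:**
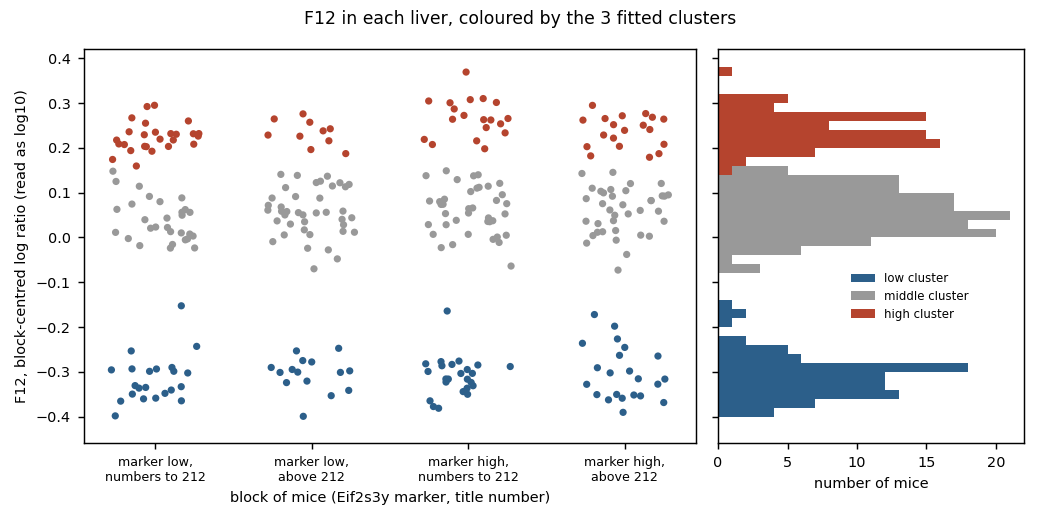
Left, each point is 1 liver, its block-centred F12 log ratio (read as log10) on the y axis and its block on the x axis, coloured by the 3 fitted clusters; right, the number of mice per step of the same axis. The low cluster lies from -0.399 to -0.153, the middle from -0.0728 to 0.149 and the high from 0.16 to 0.369.

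The genes with the largest correlations to F12 lay mostly on its own chromosome. With F12 and Itga7 themselves left out, over the 481 named probes of chromosome 13 the mean r2 with F12 was 0.0223, against 0.00729 over chromosome 10 and 0.00718 over the other chromosomes, and 8 probes on chromosome 13 had an absolute r over 0.5, against 0 on chromosome 10 and 2 elsewhere. Mcur1, a regulator of mitochondrial calcium uptake 57 measured genes away, had r = -0.763, Tpmt, the thiopurine methyltransferase 47 genes away, -0.708, and Zfp369, a zinc finger gene 55 genes away on the other side, -0.681. Mcur1 and Tpmt were low where F12 was high, in every block (r from -0.793 to -0.716 for Mcur1 and from -0.753 to -0.685 for Tpmt). Nearer by, Tspan17, 8 genes away, had r = -0.602, and Mccc2, 146 genes away, 0.571. The named gene most like F12 was however Itga7, an integrin chain on chromosome 10, with r = 0.902 (95% interval 0.878 to 0.921; 0.829 to 0.953 in the blocks). The Itga7 probe had its larger correlations on chromosome 13 as well: its mean r2 was 0.021 over chromosome 13 and 0.00588 over chromosome 10, and its largest r on chromosome 13 after that with F12 was -0.712 with Mcur1. With F12 as the regressor, limma called 444 of 23511 probes (1.89%) at an adjusted p under 0.05 and 1 of 45 members. It passed the test on none of the 9 scores described below, nor on the mouse number; the smallest adjusted p was 0.0899, on the fat storage score.

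**Figure D3:**
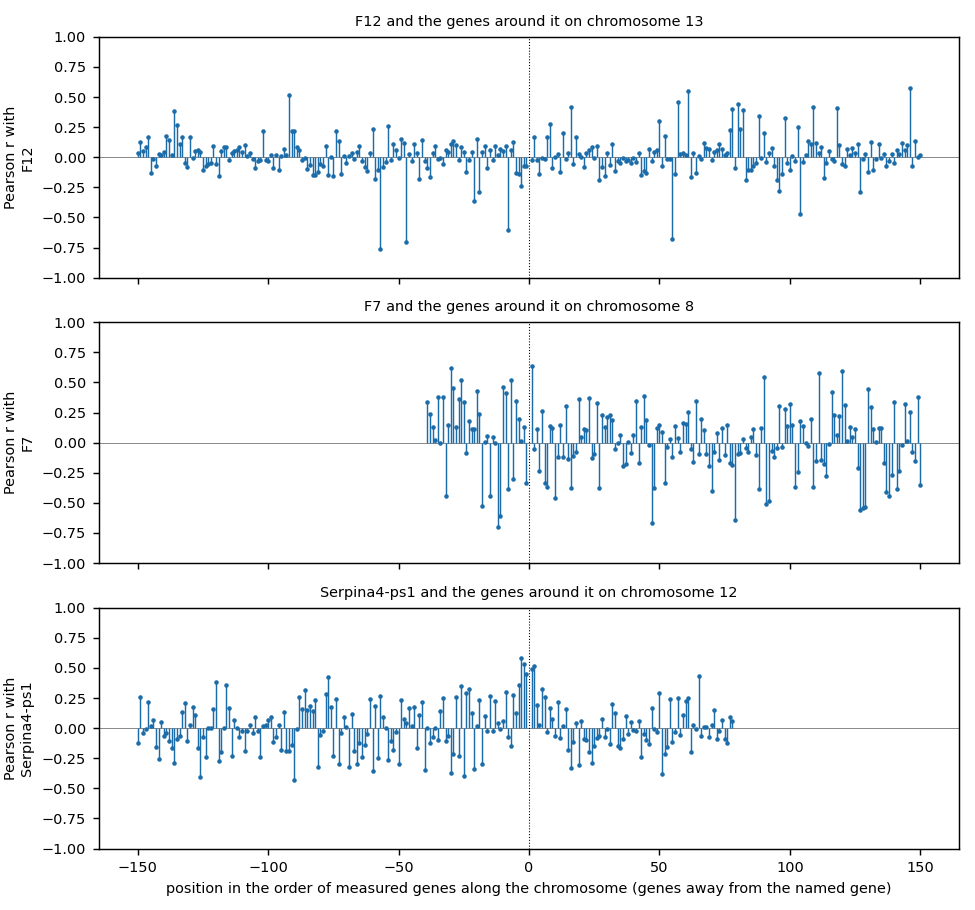
Each point is a measured gene on the chromosome of F12 (top), F7 (middle) or Serpina4-ps1 (bottom); the x axis counts genes away from the named gene and the y axis gives Pearson r with it over the mice. Large values for F12 stand far apart (-0.763 at 57 genes, -0.602 at 8 genes). The gene next to F7 is F10 (0.637), but values larger in size stand farther off (-0.703 at 12 genes, -0.669 at 47 genes). The highest values for Serpina4-ps1 lie among its serpin neighbours (0.585 for Serpina11).

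Among the other clotting proteases, F7 and F10, which stand next to each other on chromosome 8, varied together. F7, which starts clotting with tissue factor, ran from -0.469 over 0.033 to 0.346, and F10, which makes thrombin, from -0.239 over 0.00659 to 0.198. Their r was 0.637 (95% interval 0.565 to 0.7; 0.553 to 0.675 in the blocks; 0.63 without the 2 mice farthest from the median F10). F10 was the anchor of 5 pairs listed by their place in the cascade. It rose with the cofactor F5 (r = 0.297, 0.19 to 0.396) and with Proc, the zymogen of the anticoagulant protein C (0.544, 0.459 to 0.619), both at a permutation p of 1e-05, the smallest that 100000 permutations can give, as it did with F7. In the 159 mice with values it rose with F2, prothrombin (0.58, 0.467 to 0.675). F9, which acts just before F10, had no such relation to it (r = -0.063, -0.175 to 0.0503, permutation p = 0.298). F10 is a gene that many others follow: limma called 68.6% of all probes on it.

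F9 varied instead with F13b, the carrier subunit of the fibrin cross-linking factor. F9, on chromosome X, ran from -0.457 over 0.0571 to 0.319, and F13b, on chromosome 1, from -0.503 over 0.0527 to 0.322. Their r was 0.833 (0.795 to 0.865), the highest among the 1128 pairs of members, and 0.608 to 0.9 in the blocks. Outside the members, the named genes most like F9 were Rb1cc1 (0.837), Top2b (0.802) and Stag2 (0.793). Those most like F13b, again outside the members, were Usp15 (0.832), the growth hormone receptor Ghr (0.828) and Erap1 (0.826). F8a ran against F13b with r = -0.577. The cofactor F5 ran from -0.289 over 0.0332 to 0.247 and was most like the plasma protease inhibitor Fetub (0.598), and F8, whose loss causes haemophilia A, ran from -0.278 over 0.0314 to 0.162.

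The contact factors F12 and Klkb1 showed no detectable relation. Klkb1 ran from -0.525 over 0.0249 to 0.286. Its r with F12, which it activates and is activated by, was 0.00478 (-0.108 to 0.118, permutation p = 0.936), and with Serping1, the C1 inhibitor that blocks both, 0.0327 (-0.0804 to 0.145, p = 0.57). In the 159 mice with values, Plg and Klkb1 had r = 0.0336 (-0.123 to 0.188, p = 0.683). Klkb1 lay closer to F13b (0.605) and F7 (0.581). Of the 34 listed pairs 11 were measured, 8 of them in all 302 mice, and 5 of these 8 passed an adjusted p of 0.05 in limma. The share of all probes called on the anchor was 68.6% for F10, 57.4% for Klkb1, 52.5% for Serpinf1 and 37% for Serpina6.

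A set of 8 plasma proteins of different roles varied together. They are prothrombin (F2), the fibrinogen chain Fgg, plasminogen, protein C, Serpina1d, the thrombin inhibitor Serpind1 (heparin cofactor II), the plasmin inhibitor Serpinf2 and the C1 inhibitor Serping1. All 28 pairs among them had r between 0.58 and 0.796 with a median of 0.699, against a median of 0.0195 over all 1128 member pairs. The 8 were put together after their correlations were seen, so this is a description with no test. Fgg ran from -0.329 over -0.0743 to 0.295, Proc from -0.312 over -0.0569 to 0.18, and Serpinf2 from -0.342 over -0.0649 to 0.298. Serping1 ran from -0.351 over -0.0457 to 0.235, Serpina1d from -0.382 over -0.0728 to 0.314, and Serpind1 from -0.291 over -0.0432 to 0.168. In the 159 mice, F2 ran from -0.274 over -0.0369 to 0.195 and Plg from -0.201 over -0.0523 to 0.234. All 8 medians lay below the pool, but every array was labelled the same way, so such an offset cannot be told from an effect of the dyes. Proc and Serpina1d had r = 0.79 (0.668 to 0.849 in the blocks), Proc and Serpinf2 0.781 and Proc and Serping1 0.769, and Plg and its own inhibitor, Serpinf2, 0.751 (0.674 to 0.812). Outside the members, the named genes most like Proc were Rpl6, a ribosomal protein (0.874), Igf1, the growth factor (0.87), and Cfi, a complement protease (0.869). On Proc, limma called 62.6% of all probes. Fgg was most like Cfi (0.748) and Serping1 most like Lrg1 (0.828).

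**Figure D4:**
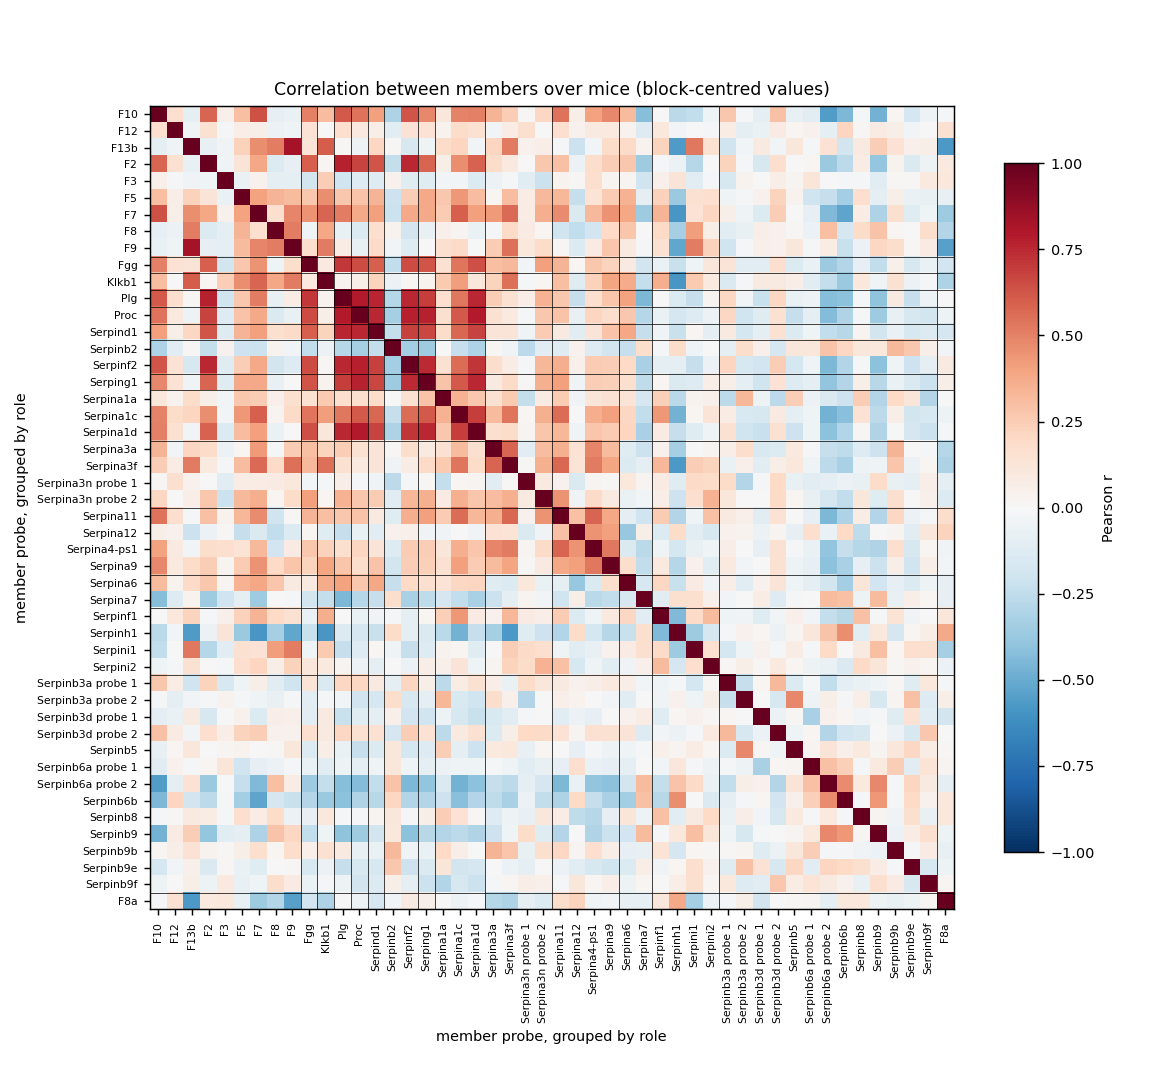
Colour gives Pearson r between 2 member probes over the mice, after centring in blocks, with the probes grouped by role on both axes and lines between roles. The pairs among F2, Fgg, Plg, Proc, Serpind1, Serpinf2, Serping1 and Serpina1d are dark red, with r from 0.58 to 0.796, while clade B probes have a median r of 0.0242 among themselves.

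The serpin cluster of chromosome 12 showed local likeness of a lower degree. Its 12 probes gave 66 pairs with a median r of 0.197, and 54 were positive. Over all members, the 107 pairs within 1 Mb had a median r of 0.136, against 0.00296 for 36 pairs farther apart on the same chromosome and 0.0139 for 981 pairs on different chromosomes. Neighbours share local genotype in a cross and, in copies, sequence, but the part of either in these r values was not tested. All pairs within 1 Mb but F7 and F10 join serpins of the same clade, so place and family cannot be told apart here. The antitrypsin copies Serpina1c and Serpina1d had r = 0.69 (0.625 to 0.74 in the blocks). Serpina1c, with values from -0.366 over -0.0206 to 0.398, and Serpina1a, from -0.47 over 0.00778 to 0.223, had r = 0.35. Serpina1d and Serpina1a had r = 0.268. The identity of the printed promoters cannot be set against these r values, because it counts gaps and the windows are shifted against each other. Serpina4-ps1 rose with Serpina11 (0.585) and with Serpina9, known from B cells (0.529). Serpina3f varied with the copy Serpina3a (0.58), although in 1 block their r was 0.169. Outside the cluster, Serpina4-ps1 was most like Slc22a27, an organic anion transporter (-0.672), the growth factor receptor Egfr (0.665) and the lipoprotein receptor Vldlr (-0.659). Serpina3f was most like the growth factor Vegfb (-0.785), the carboxylesterase Ces3b (0.772) and Myo1d (-0.746). Serpina12 was most like the monocarboxylate transporter Slc16a7 (-0.561), Gstt3 (-0.544) and Farp1 (0.518).

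The hormone carriers went apart. Serpina6 and Serpina7, listed as a pair by function, had r = -0.164 (-0.272 to -0.0518, permutation p = 0.00359, adjusted p = 0.0154 in limma), and it ran from -0.453 to 0.114 over the blocks. Serpina6 also ran against its neighbour Serpina12 (r = -0.381, and -0.49 to -0.0156 in the blocks). Serpina7 was most like Klf1, a red cell factor, with r = -0.625, and Ppfibp1 with 0.609; Serpina6 was most like Tk1, thymidine kinase, with 0.621.

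Outside clades A and B, Serpinh1 was most like collagen genes and their partners: Col5a1 (0.866), the receptor Pdgfrb (0.861) and the procollagen enhancer Pcolce (0.848). Serpinf1, the anti-angiogenic factor PEDF, ran from -0.305 over 0.0108 to 0.234 and fell where Serpinh1 rose (r = -0.441, -0.527 to -0.345, permutation p = 1e-05). Serpinf1 and Serpinf2 are neighbours on chromosome 11 yet had r = -0.0922. Serpini2, known as a pancreatic serpin, ran from -0.295 over 0.013 to 0.5 and was most like Ptprm (0.862) and the acute phase inhibitor Itih4 (0.737).

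Taken as regressors over 45 members, single members differed in the sign of their calls. With Serpinh1, 7 members rose and 25 fell, against 61.3% of all probes called, and with Serpina7 6 rose and 17 fell, against 49.2%. With F7, 26 rose and 9 fell, against 60.9%, with Serpina1c 23 rose and 10 fell, against 55.9%, and with F9 18 rose and 6 fell, against 60.5%. Over all probes, 5532 of the 14423 called on Serpinh1 rose and 4438 of 11558 on Serpina7, against 8798 of 14309 on F7, 8019 of 13132 on Serpina1c and 7086 of 14218 on F9, so for all but F9 the whole array leaned the same way as the members.

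The clade B serpins showed little shared variation. Their 14 probes, Serpinb2 included, gave 91 pairs with a median r of 0.0242 and none above 0.5, and their median r with the 8 plasma proteins was -0.138. Serpinb6a stood out by its second probe, which ran from -0.275 over 0.00746 to 0.318 and was most like the leukocyte genes Cd84 (0.846), Anxa3 (0.845) and the macrophage protease Ctss (0.826). Serpinb9, the granzyme B inhibitor, ran from -0.226 over 0.00415 to 0.25 and had r = 0.477 with it. In Serpinb9f, 2 mice lay 9.82-fold above the other 300, with a highest value of 1.22 against a 95th percentile of 0.176, and in the second Serpinb3a probe 2 mice lay 7.71-fold below. The first Serpinb3d probe ran from -1.31 over 0.0159 to 1.21, with a 95th percentile of 0.155, and Serpinb5, known as maspin, from -0.759 over 0.031 to 0.318. Such values rest on single livers. For the 4 genes with 2 probes the probes went apart: r was 0.0916 for Serpina3n, -0.231 for Serpinb3a, -0.0599 for Serpinb3d and 0.292 for Serpinb6a. What is said of these genes therefore holds for the probe named.

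To see which members move with known liver programmes from mouse to mouse, each probe was regressed on scores over other genes, with the 4 blocks in the fit. A score is the mean of the standardized values of its measured genes, none of them a member, and slopes are differences of the log ratio for 1 SD of the score. With the acute phase score, over 16 genes such as Saa1, Orm1 and Hp, 15 of 46 members rose and 2 fell at an adjusted p under 0.05, against 19.4% of all probes called, 9.05% that rose and 10.3% that fell. The strongest was the second probe of Serpina3n, an antichymotrypsin copy known as an acute phase protein. Its values ran from -0.369 over 0.0204 to 0.442, and its slope was 0.0789 ± 0.00462 (SE), a 1.2-fold rise (adjusted p = 6.43e-43, r = 0.703, and 0.494 to 0.744 in the blocks). The first Serpina3n probe had a slope of 0.00199 ± 0.00339 (adjusted p = 0.741). Serpina7 rose by 0.0551 ± 0.0142, Serpini2 by 0.0511 ± 0.00698, Serpina3f by 0.0407 ± 0.0101, Fgg by 0.0404 ± 0.00525 and Serpina11 by 0.0396 ± 0.00571. Fibrinogen is a classic acute phase protein, and its chain Fgg rose 1.1-fold for 1 SD of the score (adjusted p = 3.27e-11).

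Of the procoagulant factors F5 (0.0154 ± 0.00371), F7 (0.0195 ± 0.00582) and F10 rose with the acute phase score and F3 fell (-0.0151 ± 0.00558). Serping1 rose by 0.0185 ± 0.00422. None of the 13 clade B probes passed the test. Among mouse numbers up to 212, 8 members passed in place of 17, which is 16.7% of the members against 12.8% of all probes. Over all mice it was 37.0% against 19.4%. With the marker clusters alone as blocks it was 37.0% against 36.4%, and with no block 41.3% against 37.6%. F8a fell too (-0.00788 ± 0.00291). Of the 13 risers with a promoter in the table, 2 (15.4%) held TTCNNNGAA, namely the Serpina11 and Serpina3f printed above, against 13.2% of all members and 8.13% of all genes; F9, Serpinb2 and Serpinb6a, which are not among the risers, held it too. TTGCNNAA stood in 3 of the 13 risers, GTTAAT in 4 and CAAAGT in 1. Among 23 of 32 listed genes of clotting and fibrinolysis outside the rule, 5 rose with the score and 0 fell: Fgl1, a fibrinogen-like liver protein (0.079 ± 0.00657), Thbd, thrombomodulin (0.0478 ± 0.0168), Gas6 (0.0266 ± 0.0074), Plau, the urokinase gene (0.0174 ± 0.00201), and Hrg (0.0138 ± 0.00431). Of 16 other plasma protease inhibitors 8 rose and 1 fell, but 2 of them, Itih3 and Itih4, are part of the score. Of 17 liver transcription factors 5 rose and 0 fell, led by Stat3 (0.0414 ± 0.00414) and Cebpd (0.039 ± 0.0124). None of the 7 measured platelet genes passed the test.

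**Figure D5:**
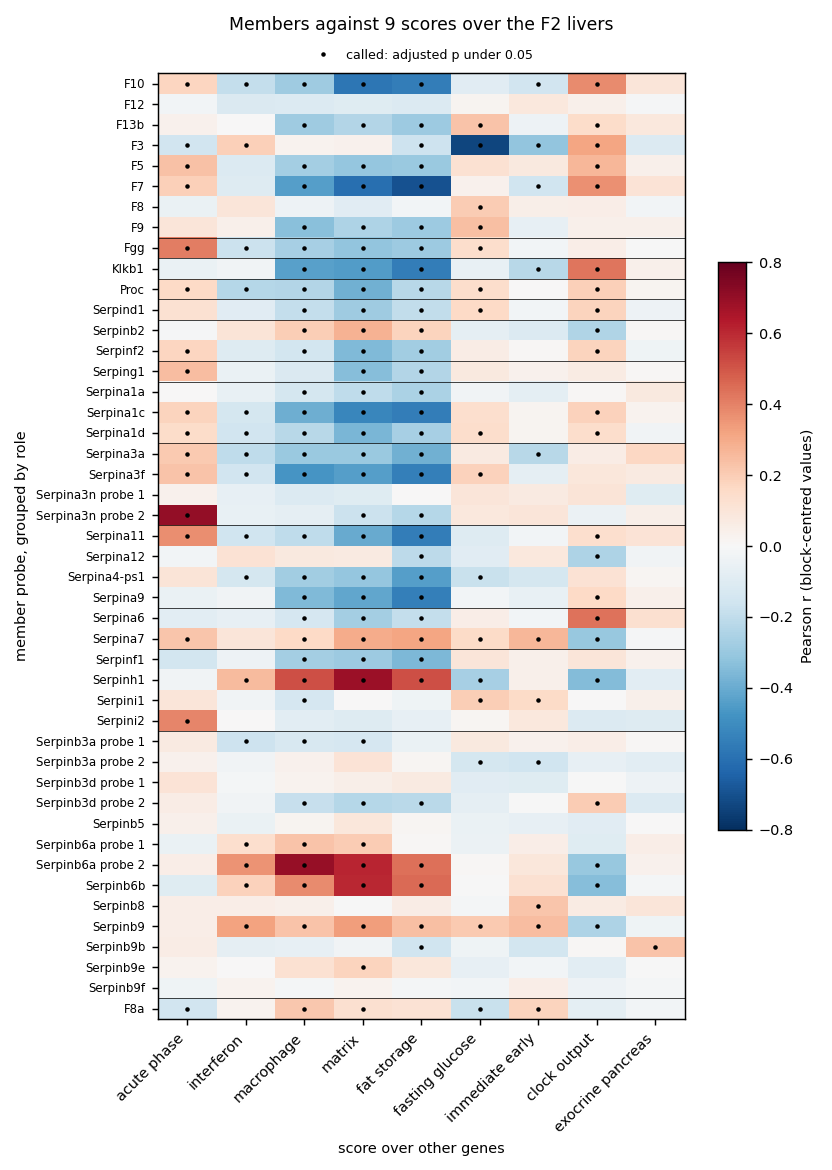
Colour gives Pearson r of each member probe (y axis, grouped by role) with 9 scores over other genes (x axis) after centring in blocks, and a point marks an adjusted p under 0.05 in limma. Serpina3n probe 2 has r = 0.703 with the acute phase score, F7 -0.695 with fat storage, Serpinb6a probe 2 0.697 with macrophages and F3 -0.735 with the fasting glucose score.

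With the fat storage score, over 6 genes of lipid droplets and adipocyte-like fat uptake such as Cidea, Pparg and Plin4, 26 of 46 members fell and 6 rose, against 54.5% of all probes called, 34.3% that fell and 20.2% that rose. Serpina4-ps1 fell by 0.186 ± 0.0218 for 1 SD of the score, a ratio of 0.652, and Serpina3f by 0.0985 ± 0.00872. F7 followed the score most closely: it fell by 0.0713 ± 0.00426 with r = -0.695, and -0.749 to -0.673 in the blocks (adjusted p = 5.7e-42). Serpina11 fell by 0.059 ± 0.00512, Serpina1c by 0.0556 ± 0.00487 and Klkb1 by 0.0535 ± 0.00468. All 4 other clade A genes, all 3 antitrypsin copies and 6 of 8 procoagulant factors fell, and so did Fgg, Proc, Serpind1, Serpinf2 and Serping1. The members that rose were Serpina7 (0.0794 ± 0.0138), Serpinh1 (0.0709 ± 0.00682), Serpinb6b (0.049 ± 0.00563), Serpinb6a probe 2 (0.0442 ± 0.00524), Serpinb2 and Serpinb9.

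The matrix and macrophage scores gave much the same picture, and the 3 scores share their mice: matrix correlated with macrophage at 0.549 and with fat storage at 0.584, and macrophage with fat storage at 0.408. With the matrix score, over 12 genes such as Col1a1 and Lum, 9 members rose and 24 fell, against 61.2% of all probes called, 20.3% that rose and 40.9% that fell. Serpinh1 rose by 0.0944 ± 0.0058 (r = 0.685, adjusted p = 7.69e-41), Serpina7 by 0.0748 ± 0.0139, Serpinb6b by 0.066 ± 0.00502 and Serpinb6a probe 2 by 0.0617 ± 0.00461. Serpina4-ps1 fell by 0.131 ± 0.0231, Serpina3f by 0.0795 ± 0.00935, F7 by 0.0621 ± 0.00471, Serpina1c by 0.0528 ± 0.00497, Serpina6 by 0.0459 ± 0.00934 and F10 by 0.0446 ± 0.00365. With the macrophage score, over 14 genes such as C1qa and Cd68, 8 rose and 23 fell, against 56.1% called, 18% up and 38.1% down. Serpinb6a probe 2 rose by 0.0702 ± 0.00419 (r = 0.697, and 0.613 to 0.782 in the blocks), Serpinh1 by 0.0706 ± 0.00683 and Serpinb6b by 0.0408 ± 0.00584, while Serpina4-ps1 fell by 0.118 ± 0.0233, Serpina3f by 0.0854 ± 0.00917, F7 fell by 0.0454 ± 0.00531 and Klkb1 fell by 0.0421 ± 0.00506. Of 6 measured marker genes of hepatocytes, 4 fell and 0 rose with the matrix score, 4 fell and 0 rose with the macrophage score, and 3 fell and 0 rose with fat storage. Of 12 endothelial genes 8 rose with each of the 3 scores, while 2 fell with the matrix, 1 with the macrophage and 1 with the fat storage score. With the first principal component of the array removed, 8 members rose and 3 fell on the macrophage score (23.9% of the members, against 35.3% of all probes), and the slopes of Serpinh1 (-0.00728), Serpina3f (0.0144), F7 (0.00781) and Klkb1 (0.00421) on it turned; the slope of Serpina3f on the matrix score (0.0137) and that of Serpinh1 on fat storage (-0.00254) turned too, and with no block that of Serpina4-ps1 on the matrix score (0.109). With that component removed, 12 members rose and 15 fell on the matrix score (58.7% of the members, against 58.4% of all probes). The part of cell numbers in the members' slopes was not tested, and in whole liver fewer cells of a type and less RNA per cell cannot be told apart. Over the whole array more probes fell than rose on these 3 scores too: 9625 against 4773 on the matrix score, or 6981 against 5918 with arrays scaled to a common spread, 8951 against 4243 on the macrophage score, or 6195 against 4945, and 8067 against 4747 on the fat storage score, or 6495 against 5619.

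With the interferon score, over 13 genes such as Ifit1 and Irf7, 6 members rose and 10 fell, against 34.2% of all probes called, 11.3% up and 23% down. The risers were both Serpinb6a probes (0.0362 ± 0.00544 for probe 2), Serpinh1 (0.0352 ± 0.00769), Serpinb9 (0.0234 ± 0.00402), Serpinb6b and F3 (0.0187 ± 0.00555). The largest falls were those of Serpina4-ps1 (-0.0597 ± 0.0241) and Serpina3f (-0.0276 ± 0.0103). With the first principal component removed 7 rose and 2 fell (19.6% of the members, against 30.3% of all probes), and the slope of Serpina3f turned (0.00921). Among mouse numbers up to 212, 8 members passed the test (16.7%, against 26.9%), and above 212, 3 (6.52%, against 9.59%). Over the whole array 5403 probes fell and 2646 rose on this score, but with arrays scaled to a common spread 2983 fell and 3259 rose. The interferon score correlated with the macrophage score at 0.505.

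F3, the cell-surface receptor that starts clotting, had the largest correlation of any member with the fasting genes. The fasting glucose score covers 8 genes, among them Pck1, Igfbp1 and Ppargc1a, which the liver turns on in a fast. F3 ran from -0.27 over -0.0226 to 0.254 and fell by 0.0718 ± 0.00384 for 1 SD of this score (r = -0.735, and -0.778 to -0.65 in the blocks; adjusted p = 2.28e-49). The slopes of Serpina4-ps1 (-0.075 ± 0.0239) and Serpinh1 (-0.0363 ± 0.00768) were negative too, both with weaker correlations (-0.178 and -0.263). Serpina7 (0.0384 ± 0.0144), Serpina3f (0.0336 ± 0.0102), F13b (0.0271 ± 0.00663) and F9 (0.026 ± 0.00614) rose. In all 11 members rose and 5 fell, against 31.6% of all probes called, 16.2% up and 15.3% down. With the first principal component removed 3 rose and 7 fell (21.7% of the members, against 29.0% of all probes), and Serpina3f turned (-0.00295). Among mouse numbers above 212, 3 members passed the test (6.52%, against 15.6%), and F13b (-9.03e-05) and F9 (-0.000935) turned. The genes most like F3 were Foxo1, a factor of the fasting response, with r = -0.784, Jdp2 with -0.757 and Bcar3 with 0.756. Foxo1 and Bcar3 lie on chromosome 3 as F3 does, and Bcar3 is 1 of the 20 measured genes nearest to it; the mean r2 of F3 was 0.0233 on its own chromosome and 0.0238 on others. F3 also fell with the immediate early score, over 11 genes such as Fos and Egr1, with a slope of -0.0309 ± 0.00536, and that score correlated with the fasting glucose score at 0.446.

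With the immediate early score 5 rose and 6 fell, against 19.7% of all probes called, 8.49% up and 11.2% down, and Serpina7 rose most (0.0665 ± 0.014). With the clock output score, over 7 genes such as Dbp and Per2, 15 rose and 7 fell, against 48.4% of all probes called, 30.4% up and 17.9% down. Serpina6 rose most (0.0731 ± 0.00875, r = 0.435), ahead of Klkb1 (0.0417 ± 0.00507), F7 (0.0373 ± 0.00552), F3 (0.0307 ± 0.00536) and F10 (0.029 ± 0.00414), while Serpina7 fell by 0.076 ± 0.0139 and Serpinh1 by 0.0481 ± 0.00746. Exocrine pancreas genes can reach liver pieces, and with their score Serpinb9b rose (0.0201 ± 0.00496) and no other member passed the test, against 6.67% of all probes called, 4.18% up and 2.49% down. The pancreatic serpin Serpini2 had a slope of -0.0139 ± 0.00753 (adjusted p = 0.272).

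The mouse number in the title is the only label that differs between mice. For 100 numbers and with the marker clusters in the fit, 21 members rose and 9 fell, against 34.4% and 32.5% of all probes: 65.2% of the members passed the test, against 66.9% of all probes. Serpina3f rose by 0.105 ± 0.0116, Serpina7 by 0.0993 ± 0.0165, F13b by 0.0833 ± 0.00704, F9 by 0.0711 ± 0.0067, Serpina3n probe 2 by 0.0681 ± 0.00722 and F7 by 0.0406 ± 0.00661. Serpinh1 fell by 0.101 ± 0.00867, Serpinf2 by 0.0397 ± 0.00538 and F3 by 0.0394 ± 0.00596. Among numbers above 212, 5 members passed (10.9%, against 9.22% of all probes), and Serpina3f (-0.000583) and Serpinf2 (0.0133) turned. These signs hold for mouse over pool. What the number stands for is not stated, and with the 4 blocks in the fit 17 members were called in place of 30, against 39.4% of all probes.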

How the data were processed

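Liver RNA of 302 F2 mice was measured on 2-colour arrays against a common pool. The deposited values are log ratios, read here as log10 of mouse over pool; per the labels, the mouse carries Cy3 and the pool Cy5, and nothing in the labels or headers states the log base, the direction or how the ratios were corrected and normalized. Of the 23562 probes, 0.0831% of the values were missing and values ran from -2 to 2. The number of arrays limits the precision. Each array is labelled with a mouse number of its own; p-values measure the spread between these samples.

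A probe was kept if 90% of the mice or more had a value, which left 23512. The mice were split into 4 blocks by Eif2s3y below or above -0.8 and by the mouse number in the title up to or above 212. Slopes on scores were fitted over all probes with limma 3.58.1 in R 4.3.3, with the blocks as factors, and p-values were adjusted over all probes by Benjamini-Hochberg; a probe was called at an adjusted p under 0.05. The mouse number was fitted with the marker clusters alone. SDs have 95% intervals from drawing the mice again 1000 times, and correlations use block-centred values, with 100000 two-sided permutations of mice for the listed pairs. A probe had separate clusters where 2 normal components lowered the Bayesian information criterion by over 10, lay over 3 SDs apart and held at least 5% of the mice each. A gene with 2 probes was taken in pairs at the probe of larger SD. Neighbours were counted within 1 Mb or by gene order. Genes given as most like a member were sought among the named genes outside the members. Promoters were aligned globally with match 1, mismatch -1 and gap -2, and identity is the share of all alignment columns, gaps included. Python 3.11.15, NumPy 2.4.6, SciPy 1.17.1, pandas 2.3.3 and Matplotlib 3.10.9 were used. The fits were tested on simulated data.

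The members, lists and scores were chosen with earlier results of these data known. The rule for named genes took every member with separate clusters, the 15 member genes of largest SD, the clotting factors, the listed pairs, up to 6 members of largest slope in each direction on a score, the 3 named genes nearest to the 10 members of largest SD, and up to 4 genes of each other list. Genes named beyond it, as nearest to other members or in pairs outside the list, and the fit of 3 components to F12, were chosen after their values were seen and carry no p. Hrg was named beyond the limit of 4, so that every riser of the clotting and fibrinolysis list on the acute phase score is given.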

Additional observations from a re-analysis of the deposited data

How the results depend on the processing

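At 3 times the median SD, 3 members varied widely in place of 7. Separate clusters were found for 1 member in place of 3 with the first principal component removed, and for 1 with means over 4 SDs apart. With the first principal component removed, 11 members in place of 31 passed the test on the macrophage score, 9 in place of 16 on the interferon score and 10 in place of 16 on the fasting glucose score. On the acute phase score, with the marker clusters alone as blocks, 17 members passed too, but this was 37.0% against 36.4% of all probes. Among mice with numbers up to 212, 8 in place of 17 passed on the acute phase score and 8 on the interferon score. On the mouse number 18 in place of 30 passed in that range (37.5% of the members, against 39.1% of all probes). Among those above 212, 17 passed on the macrophage score (37.0%, against 31.7% of all probes), 3 on the interferon score, 3 on the fasting glucose score and 5 on the mouse number. For the mouse number, 17 passed with the 4 blocks as factors (37.0%, against 39.4% of all probes) and 2 with normal scores of ranks within the block (4.35%, against 6.52%). Ranks within the block hold no step between numbers up to 212 and above, so that fit cannot show such a step. The cause of these differences was not tested, beyond the fewer mice in each range of numbers. Some slopes changed sign. With the first principal component removed, Serpina3f had 0.0137 on the matrix, 0.0144 on the macrophage, 0.00921 on the interferon and -0.00295 on the fasting glucose score, Serpinh1 -0.00728 on the macrophage and -0.00254 on the fat storage score, and F7 0.00781 and Klkb1 0.00421 on the macrophage score. With no block, Serpina4-ps1 had 0.109 on the matrix score. Among mouse numbers above 212, F13b had -9.03e-05 and F9 -0.000935 on the fasting glucose score, and Serpina3f -0.000583 and Serpinf2 0.0133 on the mouse number. The counts on the matrix (33) and fat storage (32) scores stayed within 1.5 times under every alternative run, but their signs and shares moved. With the first principal component removed, 12 rose and 15 fell on the matrix score in place of 9 and 24. That was 58.7% of the members, against 58.4% of all probes. On the fat storage score 8 rose and 15 fell in place of 6 and 26, or 50.0% against 42.5%. F12 on the values as deposited gave 144 mice in the middle cluster in place of 145, an alternative chosen after seeing the data, and 299 mice kept their cluster. Normal scores were not run for the spread and the clusters. No paired analysis was possible because all mice form 1 group. Ratios hold no signal over background, so dim probes could not be told from bright ones.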
